A study of Mus musculus with 24 samples.

Results

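The 31 genes described here are interferon-stimulated genes, which cells transcribe when interferons bind their receptors. They were taken by symbol from the deposited count table, where they are 31 of 23240 genes. All 31 passed the filter on low counts and are among the 13773 genes tested. They were divided by the interferon each is best known to answer to: 23 are targets of type I interferon, and 8 (Cxcl9, Cxcl10, Irf1, Psmb8, Psmb9, Psmb10, Cd274 and Nlrc5) are targets of interferon gamma, called gamma-type below. Cxcl10 answers to both kinds and was counted as gamma-type.

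RNA was sequenced from the livers of female NSG mice, given in the labels as 8 weeks old. Injections went into the tail vein, 2 per week over 5 weeks, and livers were collected 2 days after the last injection. One group received phosphate-buffered saline (PBS), and 3 groups received about 10 µg per injection of extracellular vesicles (EVs, membrane particles shed by cells) from human breast cells, with 6 libraries in each of the 4 groups. The EV sources are MCF10A, a non-tumorigenic breast epithelial line; a source labelled MCF10A/miR-122, which pairs that line with the microRNA miR-122; and MDA-MB-231, a metastatic breast cancer line. The library names of the MCF10A EV group read 10A-pBABE, pBABE being a retroviral vector. NSG (NOD scid gamma) mice lack mature T, B and NK cells, in all 4 groups alike, so the lymphocytes that usually make interferon gamma are missing from the strain. No label says that each library is a separate mouse, so the p-values below measure the spread between these libraries.

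For 12 of the 24 libraries the library name contradicts the label. The names of the MCF10A/miR-122 EV libraries point to MDA-MB-231, and those of the MDA-MB-231 EV libraries point to miR-122. The groups are called here by their labels. Totals were 21.3 to 29.3 M (mega) counts in the 12 PBS and MCF10A EV libraries (median 25.5) and 26.8 to 33.7 M in the other 12 (median 31.1). These 2 sets of libraries were formed here from the groups and are not a batch named in the labels, so no group has libraries in both. Between them, 24.7% of the genes tested differed. In every comparison that crosses them, the set of libraries and the treatment cannot be told apart. Markers of hepatocytes summed to 99500 to 143000 CPM per library (counts scaled to library size by edgeR's cpm function). Markers of T cells summed to at most 2.35 CPM, markers of NK cells to at most 0.516 CPM, with 2 of 6 at 0 in all libraries, and markers of B cells to at most 0.9 CPM, with 1 of 5 at 0.

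Type I interferons (alpha and beta) bind a receptor made of IFNAR1 and IFNAR2, and the kinases JAK1 and TYK2 then activate a factor containing STAT2 and IRF9, which binds the interferon-stimulated response element (ISRE). Interferon gamma binds IFNGR1 and IFNGR2 and acts through JAK1 and JAK2 on genes with gamma-activated sites (GAS), and IRF1 made in this way drives further targets. In liver, hepatocytes, Kupffer cells (the resident macrophages) and sinusoidal endothelial cells all respond to interferons, and a low level of these transcripts is kept in the absence of infection.

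The motifs through which these factors act were looked for in the promoters, which are shown for 5 genes with lower RNA in the comparisons below. Promoter sequences were RefSeq windows of build GRCm38.p6, from 250 bases before to 50 bases after the annotated start, of a reference strain that is not NSG. They were found for 23 of the 31 genes and not for Oas2, Mx1, Mx2, Usp18, Dhx58, Zbp1, Parp14 and Nlrc5. The bases before the start are printed 5′ to 3′ on the gene's strand. Capitals mark the matches to the ISRE core GAAANNGAA or to the GAS motif TTCNNNGAA, on either strand.
Ifit1 (chr19:34640740-34640888, plus strand): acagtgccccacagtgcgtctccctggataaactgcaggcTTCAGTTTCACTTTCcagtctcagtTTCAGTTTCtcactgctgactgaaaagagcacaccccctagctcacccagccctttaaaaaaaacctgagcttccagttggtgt
Rsad2 (chr12:26456453-26456611, minus strand): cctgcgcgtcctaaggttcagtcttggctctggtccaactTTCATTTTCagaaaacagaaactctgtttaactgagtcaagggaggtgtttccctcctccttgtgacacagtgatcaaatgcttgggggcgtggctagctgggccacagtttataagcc
Cxcl10 (chr5:92348890-92349139, minus strand): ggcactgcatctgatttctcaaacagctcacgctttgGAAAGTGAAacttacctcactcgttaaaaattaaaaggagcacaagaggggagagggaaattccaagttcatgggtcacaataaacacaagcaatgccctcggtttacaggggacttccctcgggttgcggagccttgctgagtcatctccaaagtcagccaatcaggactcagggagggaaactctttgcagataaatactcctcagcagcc
Irf1 (chr11:53769884-53770013, plus strand): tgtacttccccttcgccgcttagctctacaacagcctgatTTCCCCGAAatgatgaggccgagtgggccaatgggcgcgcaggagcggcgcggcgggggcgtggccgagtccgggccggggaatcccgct
Cd274 (chr19:29367322-29367437, plus strand): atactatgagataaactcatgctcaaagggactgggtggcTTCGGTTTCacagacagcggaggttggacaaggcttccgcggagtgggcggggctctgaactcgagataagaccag
Ifit1 has 3 matches to the ISRE core, starting 109, 103 and 84 bases before the start, of which the first pair overlaps. Rsad2 has 1 at 119 bases, Cxcl10 1 at 213 bases and Cd274 1 at 76 bases. Irf1 has no match to the ISRE core in its window and 1 to the GAS motif, at 90 bases.

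Of the 23 genes with a promoter, 13 (56.5%) held an ISRE core, against 9.76% of the 27025 genes in the RefSeq table. Of the type I genes it was 10 of 16 (62.5%), and of the gamma-type genes 3 of 7 (42.9%). A GAS motif was in 5 of 23 (21.7%), against 9.55% of all genes, with 3 of 16 type I genes (18.8%) and 2 of 7 gamma-type genes (28.6%). More than 1 ISRE core was found in 6 of 16 type I promoters (37.5%), in 0 of 7 gamma-type promoters and in 1.22% of all genes. Counting the gene's strand alone, 6 of the 23 held an ISRE core, against 1393 of the 27025 genes. The genes lower against PBS below that have a promoter here, Ifit1, Rsad2, Cxcl10, Irf1 and Cd274, all hold a match. A match to either motif was held by 16 of the 23 genes and by 4836 of the 27025. Oasl1, lower only with the groups pooled, and Irf7, higher with the groups pooled, have none. Genes that did not pass the test in any comparison include promoters with and without a match. Isg15 and Ifit3 have 3 matches each, and Xaf1 and Psmb9 have 0.

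**Figure D1:**
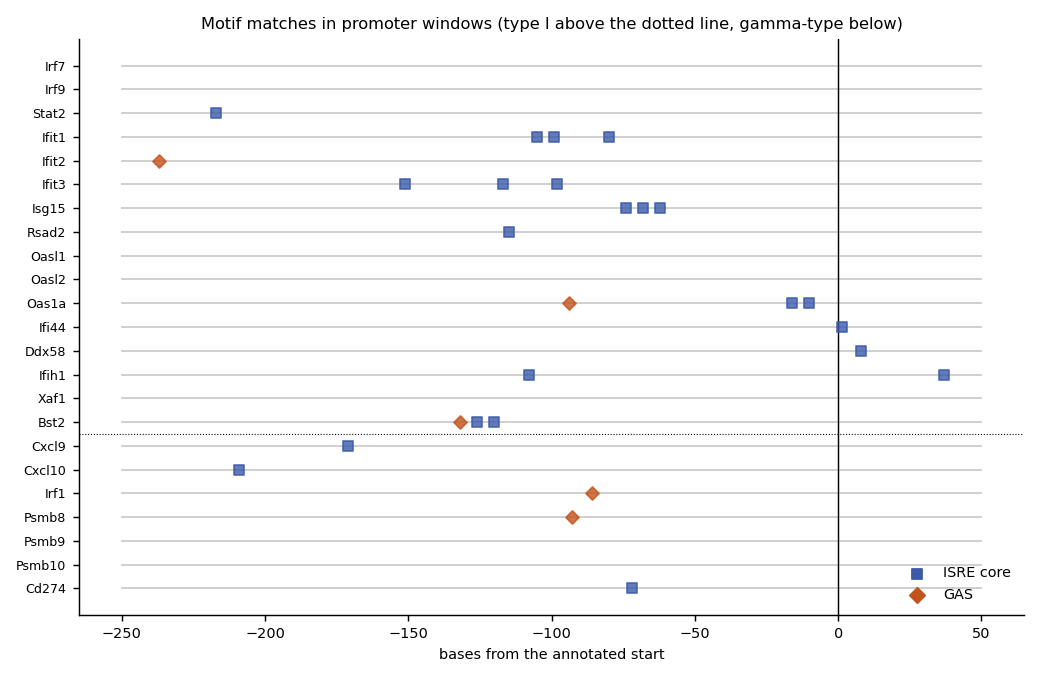
Positions of motif matches in the promoter windows of the 23 genes found in the RefSeq table, in bases from the annotated start (0), with squares for the ISRE core and diamonds for the GAS motif. Matches are drawn for 10 of 16 type I genes and 3 of 7 gamma-type genes for the ISRE core.

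Per kilobase of exon, the 31 genes spanned a wide range of levels. Bst2, which encodes tetherin, a membrane protein that holds budding virus particles on the cell, was highest at 203 CPM per kb over the 24 libraries. Isg15, a ubiquitin-like protein joined to other proteins, followed at 17.3 CPM per kb, Psmb10 at 16.9, Irf7 at 14.5 and Stat2 at 13.7. Cd274 was lowest at 0.536 CPM per kb, next to Mx1 at 0.705. The 3 immunoproteasome subunits lay below the constitutive subunits they replace: Psmb8 at 9.67 CPM per kb against 48.9 for Psmb5, Psmb9 at 2.52 against 45.2 for Psmb6, and Psmb10 at 16.9 against 30.1 for Psmb7. Exon lengths came from GENCODE M21, an annotation of another build than the counts. They join the exons of all annotated transcripts of a gene, 3381 bases for Psmb8 and 899 for Psmb5, so the order above depends on them. Without division by length, Psmb8 was at 32.7 CPM against 44 for Psmb5. Psmb9 was at 9.21 CPM against 84.6 for Psmb6, and Psmb10 at 28.8 against 103 for Psmb7.

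Some counts are uncertain because of near-identical copies. Oas1a shares 68.2% of its 32-base stretches with other genes, mostly Oas1g, and Ifit3 shares 61.1% with Ifit3b. For Isg15 the share is 12.1% and for Ifit1 it is 10.2%. How reads mapping to several places were counted is not given in the sources used here.

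In the comparisons with PBS, each of the 31 genes past the threshold in edgeR was lower in the EV-treated livers. With EVs labelled MCF10A/miR-122, 7 of the 31 fell and 0 rose (22.6%), against 17.9% of all genes tested (9.53% lower, 8.35% higher): Cd274, Cxcl10, Irf1, Rsad2, Zbp1, Ifit1 and Dhx58. With EVs labelled MDA-MB-231, 3 fell and 0 rose (9.68%), against 11.7% of all genes tested (6.34% lower, 5.33% higher): Cd274, Irf1 and Rsad2. With MCF10A EVs, 1 fell and 0 rose (3.23%), against 1.07% of all genes tested (0.697% lower, 0.37% higher): Cd274. The shares of 22.6% and 9.68% lie near those of all genes, with the difference that edgeR called no member higher. The 3 comparisons share the 6 PBS libraries, so their results are not independent of each other. In whole liver, fewer cells of a type and less RNA per cell cannot be told apart.

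**Figure D2:**
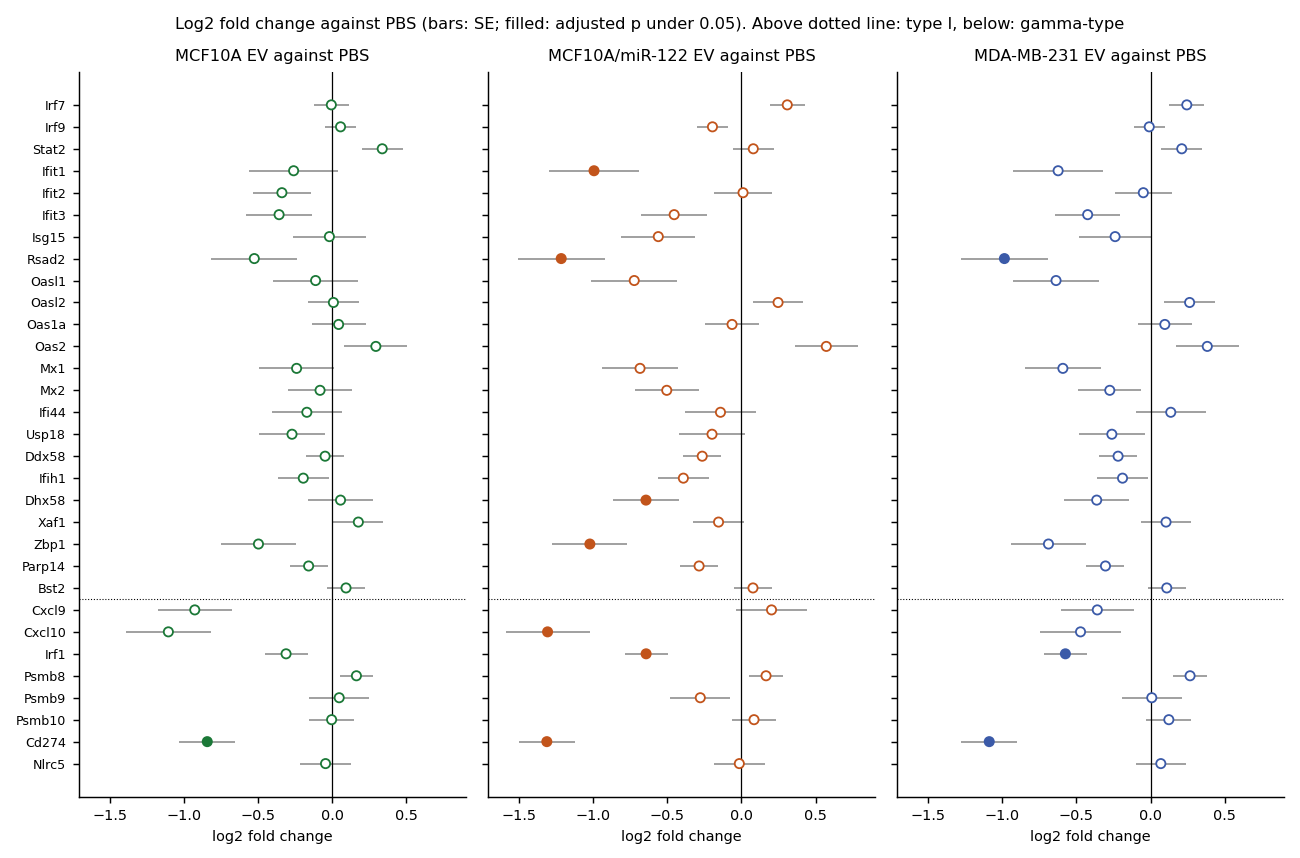
Log2 fold change of each of the 31 genes against PBS in the 3 EV groups as labelled, with bars for the standard error and filled points for an adjusted p under 0.05. Filled points are 1, 7 and 3 in number, all to the left of 0, with Cd274 filled in each panel.

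Among the gamma-type genes, Cd274 encodes PD-L1, the ligand of the T cell inhibitory receptor PD-1. It was at 2.18 to 3.94 CPM with PBS (median 3.31), 1.17 to 2.51 with MCF10A EV (median 1.75), 0.942 to 1.82 with MCF10A/miR-122 EV (median 1.2) and 1.16 to 1.9 with MDA-MB-231 EV (median 1.39). Every value of these last 2 groups lay below every PBS value, and MCF10A EV overlapped PBS in its upper part. No overlap with PBS, in the lower direction, was seen in 3.48% and 3.23% of all genes tested in those 2 comparisons. Each library had 25 to 107 counts of Cd274. The fall was 2.48-fold with MCF10A/miR-122 EV (log2 fold change -1.31, SE 0.19, adjusted p = 4.87e-05, edgeR quasi-likelihood test). With MDA-MB-231 EV it was 2.12-fold (log2 fold change -1.09, SE 0.19, adjusted p = 0.000621). Both calls held without any 1 library of the groups compared. With MCF10A EV the fall was 1.79-fold (log2 fold change -0.84, SE 0.19, adjusted p = 0.0273), but this call was lost without any 1 of PBS replicates 1, 2, 3 and 4 or MCF10A EV replicates 3, 4 and 6 (adjusted p up to 0.0795), and when only these 12 libraries were fitted (adjusted p = 0.072).

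Irf1 encodes a transcription factor that is induced by interferon gamma and drives many of its later targets. It was at 26.1 to 41.8 CPM with PBS (median 38.8), 23.6 to 33.2 with MCF10A EV (median 30.1), 14.6 to 29.2 with MCF10A/miR-122 EV (median 23.5) and 21.5 to 28.1 with MDA-MB-231 EV (median 24.2). PBS replicates 4 and 6, at 29.7 and 26.1 CPM, were the lowest of the PBS group, and replicate 6 lay within the range of each EV group. Irf1 fell 1.56-fold with MCF10A/miR-122 EV (log2 fold change -0.64, SE 0.145, adjusted p = 0.00359). It fell 1.49-fold with MDA-MB-231 EV (log2 fold change -0.57, SE 0.145, adjusted p = 0.0115). Both calls held without any 1 library. With MCF10A EV its log2 fold change was -0.31 (adjusted p = 0.269).

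The chemokine genes Cxcl10 and Cxcl9, whose products attract T and NK cells through the receptor CXCR3, did not follow each other. Cxcl10 was at 2.94 to 6.22 CPM with PBS (median 3.94), 0.898 to 3.31 with MCF10A EV (median 1.89), 1.4 to 2.13 with MCF10A/miR-122 EV (median 1.66) and 1.82 to 6.2 with MDA-MB-231 EV (median 2.54). All libraries labelled MCF10A/miR-122 EV lay below every PBS library. In the MDA-MB-231 EV group replicate 1, at 6.2 CPM, was as high as the highest PBS library, and the others reached 3.28 CPM. Cxcl10 fell 2.47-fold with MCF10A/miR-122 EV (log2 fold change -1.31, SE 0.28, adjusted p = 0.00259), a call that held without any 1 library. With MCF10A EV the log2 fold change was -1.10 (SE 0.28, adjusted p = 0.0551), and with MDA-MB-231 EV it was -0.47 (adjusted p = 0.27). DESeq2 called the former (adjusted p = 0.00813), and edgeR did so without PBS replicate 5, PBS replicate 6 or MCF10A EV replicate 5. The latter rested on MDA-MB-231 EV replicate 1: without it, Cxcl10 was lower and past the threshold (log2 fold change -0.81, adjusted p = 0.0338).

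Cxcl9 was at 5.87 to 20.6 CPM with PBS (median 9.09), 3.56 to 7.6 with MCF10A EV (median 4.92), 8 to 14.9 with MCF10A/miR-122 EV (median 11.5) and 6.06 to 10.4 with MDA-MB-231 EV (median 7.68). The MCF10A/miR-122 EV libraries were all above the MCF10A EV libraries, and both groups overlapped PBS. It passed the test among the 4 groups (adjusted p = 0.00897) and no comparison with PBS: its log2 fold change was -0.93 with MCF10A EV (SE 0.25, adjusted p = 0.0649), 0.20 with MCF10A/miR-122 EV (adjusted p = 0.6) and -0.36 with MDA-MB-231 EV (adjusted p = 0.359). DESeq2 called the first of these (adjusted p = 0.012), and edgeR did so without PBS replicate 5, PBS replicate 6 or MCF10A EV replicate 5 (adjusted p down to 0.0352). Without PBS replicate 3, the library at 20.6 CPM, its log2 fold change was -0.60 (adjusted p = 0.202). The group labelled MCF10A/miR-122 EV was then compared directly with MCF10A EV, a comparison chosen after the values were seen. Cxcl9 was 2.19-fold higher there (log2 fold change 1.13, SE 0.25, adjusted p = 0.00304), and the call held without any 1 library. No overlap in the higher direction was seen in 2.4% of all genes tested. Cxcl10 had a log2 fold change of -0.20 in the same comparison (SE 0.29, adjusted p = 0.695).

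Kupffer cell markers moved in the same comparison as Cxcl9. Of 8 markers, 6 rose with MCF10A/miR-122 EV against MCF10A EV and 5 rose against PBS, where 7.53% and 8.35% of all genes tested were higher, and none was at 0 in all libraries. Their summed level was 257 to 619 CPM with MCF10A/miR-122 EV (median 359), 221 to 269 with MCF10A EV (median 244), 240 to 301 with PBS (median 258) and 196 to 301 with MDA-MB-231 EV (median 266). The library with the highest sum, MCF10A/miR-122 EV replicate 3, had 10.1 CPM of Cxcl9, below the median of its group, and replicate 2, with the most Cxcl9, had a sum of 336 CPM. The part of Kupffer cells in the Cxcl9 result was not tested.

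The antigen-processing genes of the gamma-type list did not pass the test. Psmb8, Psmb9 and Psmb10 encode the proteasome subunits that replace the constitutive ones in cells exposed to interferon gamma, and Nlrc5 encodes the transactivator of MHC class I genes. Of these 4, edgeR and DESeq2 called 0 in each comparison, and at an unadjusted p under 0.05 only Psmb8 with MDA-MB-231 EV against PBS passed. Psmb8 was at 24.4 to 33.9 CPM with PBS (median 29.2), 25.4 to 41.9 with MCF10A EV (median 32.9), 27.5 to 41.1 with MCF10A/miR-122 EV (median 32.8) and 31.4 to 39.8 with MDA-MB-231 EV (median 35.2). Psmb10 was at 20.7 to 38.7, 19.5 to 35.4, 21.3 to 34.9 and 25.1 to 34.1 CPM in the same order of groups. The groups overlapped for both. Against PBS the log2 fold changes of the 4 genes lay between -0.28 (Psmb9 with MCF10A/miR-122 EV, adjusted p = 0.368) and 0.27 (Psmb8 with MDA-MB-231 EV, SE 0.11, adjusted p = 0.124). Of the constitutive counterparts Psmb5, Psmb6 and Psmb7, edgeR and DESeq2 called 0 of 3 in each comparison with PBS, with 1 or 2 at an unadjusted p under 0.05.

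**Figure D3:**
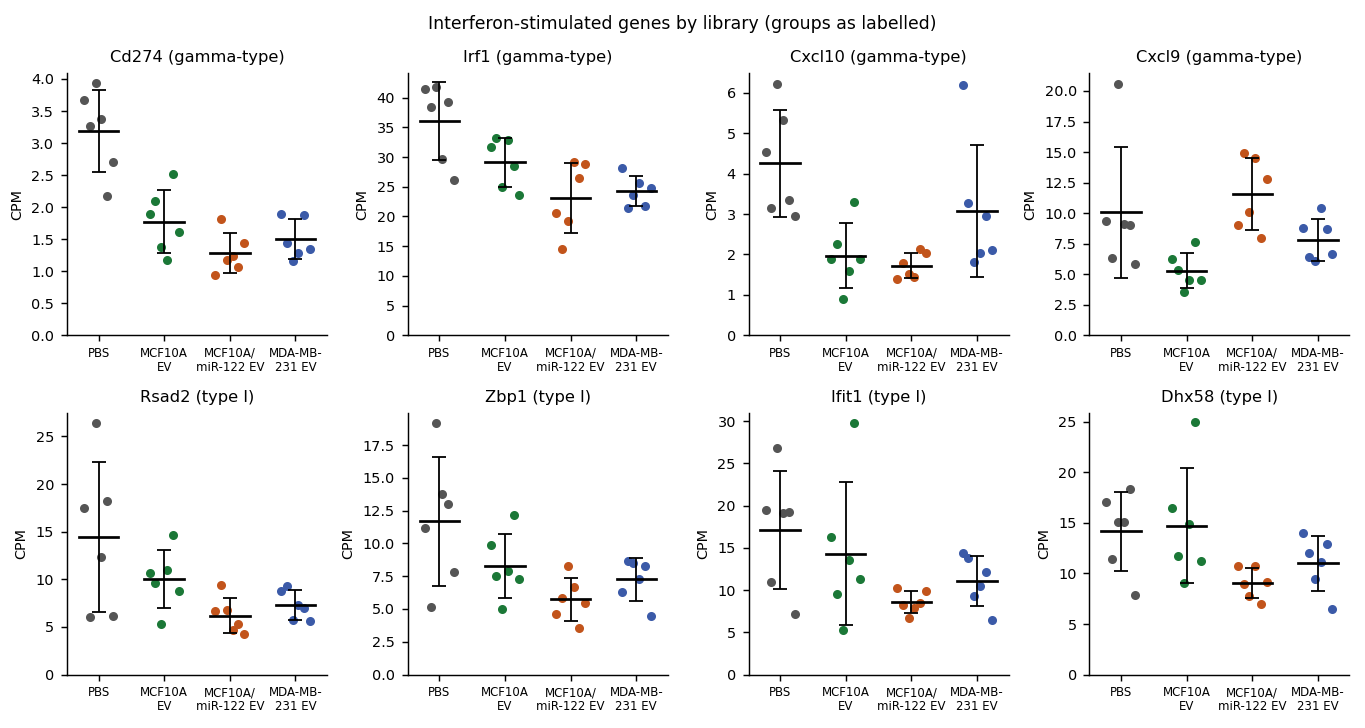
CPM per library (points, replicate order from left to right) of 4 gamma-type and 4 type I genes in the 4 labelled groups, with the group mean (line) and SD (bars), n = 6 each. For Cd274 both right-hand groups lie under all PBS points, for Cxcl10 one of them does, and for Cxcl9 the MCF10A/miR-122 EV points lie above all MCF10A EV points.

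Of the type I genes, Rsad2, Zbp1, Ifit1 and Dhx58 fell with EVs labelled MCF10A/miR-122. Rsad2 encodes viperin, an antiviral enzyme that makes a chain-terminating nucleotide. It was at 6.05 to 26.4 CPM with PBS (median 14.9), 5.28 to 14.7 with MCF10A EV (median 10.2), 4.26 to 9.41 with MCF10A/miR-122 EV (median 6) and 5.58 to 9.33 with MDA-MB-231 EV (median 7.15). PBS was split, with replicates 2 and 6 at 6.05 and 6.13 CPM, inside the range of every EV group, and the other 4 at 12.3 CPM or more. Rsad2 fell 2.32-fold with MCF10A/miR-122 EV (log2 fold change -1.21, SE 0.29, adjusted p = 0.00578), and that call held without any 1 library. With MDA-MB-231 EV it fell 1.98-fold (log2 fold change -0.98, SE 0.29, adjusted p = 0.0287), but this call was lost without any 1 of PBS replicates 1, 3 and 5 or MDA-MB-231 EV replicates 3, 4 and 6 (adjusted p up to 0.0924), and when only the 12 libraries compared were fitted (adjusted p = 0.0511).

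Zbp1 encodes a sensor of left-handed nucleic acid helices that can start necroptosis. It was at 5.12 to 19.2 CPM with PBS (median 12.1), 5.02 to 12.2 with MCF10A EV (median 7.7), 3.58 to 8.28 with MCF10A/miR-122 EV (median 5.66) and 4.45 to 8.68 with MDA-MB-231 EV (median 7.76). PBS replicates 2 and 6 again lay within the range of the EV groups. The fall with MCF10A/miR-122 EV was 2.03-fold (log2 fold change -1.02, SE 0.25, adjusted p = 0.0067), and it held without any 1 library. With MDA-MB-231 EV the log2 fold change was -0.69 (SE 0.25, adjusted p = 0.0727). DESeq2 called Zbp1 there (adjusted p = 0.0404), so that its count in that comparison was 4 of 31, and edgeR did so without PBS replicate 2 (adjusted p = 0.021) or PBS replicate 6.

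Ifit1, whose product binds foreign RNA lacking the host's cap methylation, was at 7.21 to 26.8 CPM with PBS (median 19.2), 5.31 to 29.8 with MCF10A EV (median 12.4), 6.72 to 10.3 with MCF10A/miR-122 EV (median 8.38) and 6.5 to 14.4 with MDA-MB-231 EV (median 11.4). All groups overlapped, and MCF10A EV alone ran from below the lowest to above the highest PBS library. Ifit1 fell 1.99-fold with MCF10A/miR-122 EV (log2 fold change -0.99, SE 0.31, adjusted p = 0.0263), a call lost without PBS replicate 1, PBS replicate 3 or MCF10A/miR-122 EV replicate 3 (adjusted p up to 0.0728). Its neighbours in the family, Ifit2 and Ifit3, had log2 fold changes of 0.01 (adjusted p = 0.978) and -0.45 (adjusted p = 0.161) there.

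Dhx58 encodes LGP2, which tunes the RNA sensors RIG-I (Ddx58) and MDA5 (Ifih1). It was at 7.84 to 18.4 CPM with PBS (median 15.1), 9.02 to 25 with MCF10A EV (median 13.3), 7.01 to 10.7 with MCF10A/miR-122 EV (median 9.08) and 6.46 to 14 with MDA-MB-231 EV (median 11.6). PBS replicate 6 alone of its group lay within the MCF10A/miR-122 EV range. The fall with MCF10A/miR-122 EV was 1.56-fold (log2 fold change -0.64, SE 0.22, adjusted p = 0.044). It was lost without any 1 of PBS replicates 1, 3, 4 and 5 or MCF10A/miR-122 EV replicates 2, 3, 5 and 6 (adjusted p up to 0.0954), and with no filter on low counts. The sensors themselves were not called: the log2 fold change was -0.26 for Ddx58 (adjusted p = 0.156) and -0.39 for Ifih1 (adjusted p = 0.118).

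Not all type I genes leaned the same way. Oas2, an enzyme that makes the activator of RNase L, had a log2 fold change of 0.57 with MCF10A/miR-122 EV (SE 0.21, adjusted p = 0.0607), and Irf7, the factor that amplifies interferon alpha genes, one of 0.31 (SE 0.12, adjusted p = 0.0681). DESeq2 called both as higher, along with a lower Mx1, so that its count there was 10 of 31. edgeR also called both as higher without PBS replicate 5 or MCF10A/miR-122 EV replicate 2, and Oas2 without MCF10A/miR-122 EV replicate 4. Stat2 was at 59.6 to 87.8 CPM with PBS (median 69.9), 74 to 123 with MCF10A EV (median 86.2), 62.7 to 117 with MCF10A/miR-122 EV (median 69.8) and 73.8 to 97.8 with MDA-MB-231 EV (median 82.6). Bst2 was at 140 to 239 CPM with PBS (median 164), 152 to 251 with MCF10A EV (median 185), 152 to 213 with MCF10A/miR-122 EV (median 185) and 167 to 218 with MDA-MB-231 EV (median 186). The groups overlapped widely for both genes. Neither passed a test, with log2 fold changes against PBS of 0.08 to 0.34 for Stat2 and 0.08 to 0.11 for Bst2. Irf9, the third part of the ISRE-binding factor, had log2 fold changes of -0.20 to 0.06 and was not called.

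The other type I genes that edgeR did not call against PBS were Ifit2, Ifit3, Isg15, Oasl1, Oasl2, Oas1a, Mx1, Mx2, Ifi44, Usp18, Ddx58, Ifih1, Xaf1 and Parp14. Their log2 fold changes with MCF10A/miR-122 EV ran from -0.72 (Oasl1, adjusted p = 0.0855) to 0.25 (Oasl2, adjusted p = 0.337). Usp18, which removes ISG15 from proteins and brakes the type I receptor, had -0.20 (adjusted p = 0.574). Isg15 itself had -0.56 (adjusted p = 0.12). At an unadjusted p under 0.05, 16 of the 31 genes passed with MCF10A/miR-122 EV, against 31.4% of all genes tested, 9 with MDA-MB-231 EV, against 26.9%, and 5 with MCF10A EV, against 17.3%. Some genes were called by edgeR only when 1 library was left out. Without PBS replicate 6 these were Oasl1, Mx1 and Mx2 with MCF10A/miR-122 EV and Mx1 with MDA-MB-231 EV, all lower, and without PBS replicate 2 Mx1 with MCF10A/miR-122 EV.

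More genes passed when the groups of each set were pooled. With the mean of MDA-MB-231 EV and MCF10A/miR-122 EV set against the mean of PBS and MCF10A EV, 8 of the 31 fell and 1 rose (29%), against 24.7% of all genes tested (13.2% lower, 11.5% higher). This comparison does not depend on which of the contradicting names is right, but set and treatment cannot be told apart in it. In the same comparison 2 of 3 tested neutrophil markers fell and 4 of 8 Kupffer markers rose. The Kupffer rise was not shared by both pooled groups. Against PBS, 5 of the 8 rose with MCF10A/miR-122 EV. With MDA-MB-231 EV, edgeR and DESeq2 called 0, with 2 at an unadjusted p under 0.05. Set against MCF10A/miR-122 EV, 3 of the 8 were lower with MDA-MB-231 EV, where 0.211% of all genes tested were lower. Summed neutrophil markers were at 1.15 to 4.6 CPM with PBS (median 2.07), 1.27 to 6.92 with MCF10A EV (median 2.56), 1.4 to 3.24 with MCF10A/miR-122 EV (median 2.09) and 1.45 to 2.58 with MDA-MB-231 EV (median 1.69), and none was at 0 in all libraries. Their part in the result was not tested. Cd274 (log2 fold change -0.78, adjusted p = 0.000169), Irf1 (-0.45, adjusted p = 0.00212), Rsad2 (-0.84, adjusted p = 0.00438), Dhx58 (-0.53, adjusted p = 0.0138) and Zbp1 (-0.61, adjusted p = 0.0145) fell, and these calls held without any 1 of the 24 libraries. Irf7 rose 1.21-fold (log2 fold change 0.28, SE 0.08, adjusted p = 0.015), also without any 1 library. It was at 38.4 to 59.5 CPM with PBS (median 48.4), 38.1 to 63.8 with MCF10A EV (median 48.4), 49.6 to 69.6 with MCF10A/miR-122 EV (median 62.6) and 51.4 to 69.3 with MDA-MB-231 EV (median 57.9). All 4 groups overlapped in it.

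Ifit1 (log2 fold change -0.68, adjusted p = 0.023) and Oasl1 (-0.62, adjusted p = 0.0276) also fell in this comparison. Both calls were lost without MCF10A EV replicate 5, at adjusted p = 0.0575 and 0.057. Oasl1, an oligoadenylate synthetase-like protein that in mouse limits translation of Irf7, was at 4.68 to 13.4 CPM with PBS (median 10.3), 4.23 to 13.5 with MCF10A EV (median 9.22), 3.62 to 7.24 with MCF10A/miR-122 EV (median 6.57) and 2.61 to 10.2 with MDA-MB-231 EV (median 6.45). Every group overlapped the others. Mx1, a dynamin-like antiviral protein, was at 1.26 to 5.52 CPM with PBS (median 3.25), 1.76 to 4.75 with MCF10A EV (median 2.65), 1.62 to 2.37 with MCF10A/miR-122 EV (median 2.19) and 1.95 to 3.02 with MDA-MB-231 EV (median 1.97). Its groups overlapped as well, with PBS replicate 6 the lowest of all 24 libraries. Its fall (log2 fold change -0.52, adjusted p = 0.0406) was lost without any 1 of 12 libraries: PBS replicates 1, 3 and 5, MCF10A EV replicates 1, 4 and 5, MCF10A/miR-122 EV replicates 2 and 3, and MDA-MB-231 EV replicates 3, 4, 5 and 6.

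Between the groups labelled MDA-MB-231 EV and MCF10A/miR-122 EV, which lie in the same set, edgeR called 0 of the 31 genes, against 0.254% of all genes tested (0.211% lower, 0.0436% higher). At an unadjusted p under 0.05 there were 2, DESeq2 called 0, and the smallest adjusted p was 0.348, for Cxcl10 (log2 fold change 0.83, SE 0.29). The genes that fell against PBS with one of these EVs and not with the other are therefore not shown to differ between them. Against MCF10A EV, comparisons added after the values were seen, MCF10A/miR-122 EV gave 2 calls of 31, against 16.2% of all genes tested (8.71% lower, 7.53% higher): Cxcl9, given above, and Dhx58, which was 1.62-fold lower (log2 fold change -0.70, SE 0.22, adjusted p = 0.031). The Dhx58 call was lost without any 1 of MCF10A EV replicates 1, 4 and 5 or MCF10A/miR-122 EV replicates 2, 3, 5 and 6 (adjusted p up to 0.13). DESeq2 also called Irf7 there, as higher (adjusted p = 0.0389). MDA-MB-231 EV against MCF10A EV gave 0 calls in edgeR, against 7.68% of all genes tested (4.44% lower, 3.24% higher), with 3 at an unadjusted p under 0.05 and 0 in DESeq2. In the test for any difference among the 4 groups, 6 of the 31 genes passed, against 21.4% of all genes tested: Cd274, Cxcl10, Irf1, Cxcl9, Rsad2 and Zbp1.

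Set side by side, the classes are given by how many members fell and by their medians, without a test. The gamma-type median was the lower of the 2 with MCF10A EV and the higher with the other EVs. With MCF10A/miR-122 EV, 4 of 23 type I genes (17.4%) and 3 of 8 gamma-type genes (37.5%) fell, against 9.53% of all genes tested. The median log2 fold changes were -0.26 and -0.15, beside 0.001 for all genes tested. With MDA-MB-231 EV 1 of 23 (4.35%) and 2 of 8 (25%) fell, against 6.34% of all genes tested, with medians of -0.22 and -0.18. With MCF10A EV 0 of 23 and 1 of 8 (12.5%) fell in edgeR, against 0.697% of all genes tested, with medians of -0.08 and -0.18. Of the 23, 1 had an unadjusted p under 0.05 there and DESeq2 called 0. The gamma-type class was divided within itself: Cd274, Irf1 and Cxcl10 fell in at least 1 comparison with PBS, Cxcl9 was higher in a comparison between EVs, and the 4 antigen-processing genes passed none. In all, 10 of the 31 genes passed in at least 1 of the 5 comparisons of the design, 7 of them against PBS, and 21 in none. Of all genes tested, 29.4% passed in at least 1 of the 5.

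**Figure D4:**
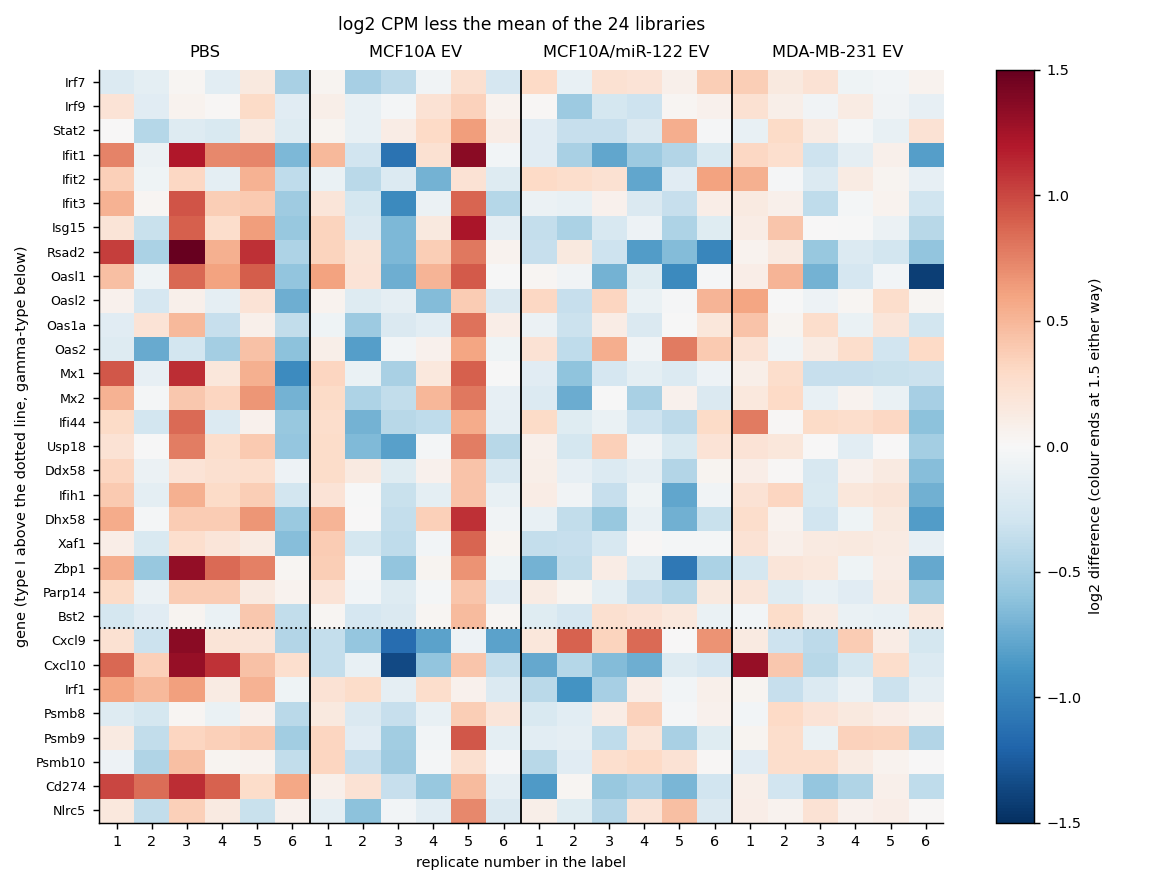
Log2 CPM of the 31 genes (rows) in the 24 libraries (columns, by labelled group and replicate number), each less its mean over the 24 libraries. MCF10A EV replicate 5 and PBS replicates 3 and 5 are high across most type I genes, PBS replicate 6 and MCF10A EV replicate 3 are low, and Cd274 is high in the PBS columns.

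In some groups 1 or 2 libraries were the highest or lowest in most type I genes. MCF10A EV replicate 5 was the highest of its 6 libraries in all 23 type I genes and in 6 of 8 gamma-type genes. In the PBS group replicate 3 was highest in 11 and replicate 5 in 10 of the 23, and replicate 6 was lowest in 17. With MDA-MB-231 EV replicate 1 was highest in 12 and replicate 6 lowest in 15. With MCF10A/miR-122 EV no library stood out as clearly: the most often highest was replicate 6, in 9 genes, and the most often lowest replicate 2, in 10. The mean log2 CPM of the 23 genes ran from 3.47 to 4.46 over the PBS libraries, a range of 0.98, and over a range of 1.1 with MCF10A EV. With MCF10A/miR-122 EV the range was 0.27 and with MDA-MB-231 EV 0.6. Summed neutrophil markers were also high in some of these libraries: 6.61 CPM in MCF10A EV replicate 5 and 4.6 CPM in PBS replicate 3, against 1.15 CPM in PBS replicate 6. Others did not follow this order. PBS replicate 5 was at 2.18 CPM. With MDA-MB-231 EV, replicate 1 was at 1.57 CPM and replicate 6 at 2.58 CPM, the highest of its group. MCF10A EV replicate 4, with the highest neutrophil sum at 6.92 CPM, was not the highest of its group in any type I gene. The part of neutrophils in these patterns was not tested.

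For most type I genes, the spread between libraries was smaller in the last set. For 16 of the 23 type I genes (69.6%) the SD of log2 CPM was smaller in both groups of the last set than in both PBS and MCF10A EV, which held for 3 of 8 gamma-type genes and for 18.5% of all genes tested. The median SD of the type I genes was 0.42 with PBS, 0.46 with MCF10A EV, 0.24 with MCF10A/miR-122 EV and 0.27 with MDA-MB-231 EV. Over all genes tested it was 0.19, 0.20, 0.23 and 0.17. The count of 16 depended on MCF10A EV replicate 5: without it, it was 9. Set and treatment cannot be told apart here either.

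**Figure D5:**
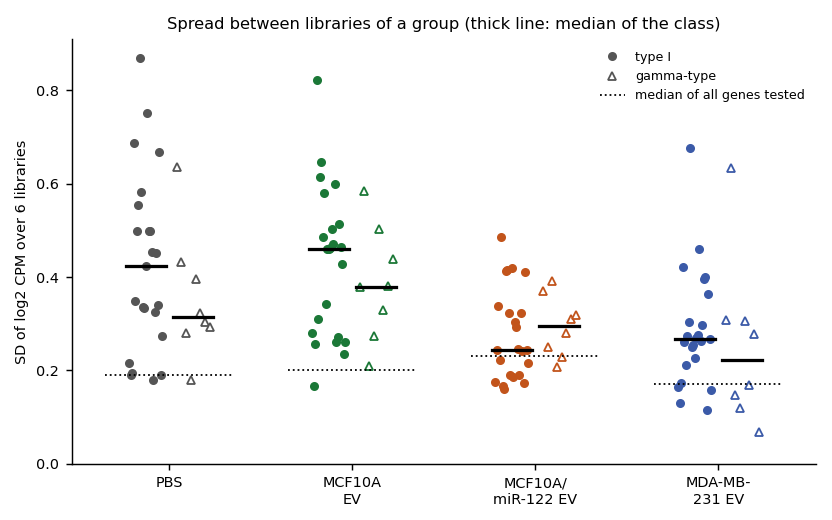
SD of log2 CPM over the 6 libraries of each labelled group, for the 23 type I genes (filled circles) and the 8 gamma-type genes (open triangles), with thick lines for class medians and dotted lines for the median of all genes tested. The type I medians are 0.42 and 0.46 in the groups on the left and 0.24 and 0.27 in those on the right.

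The genes upstream of the 31 were read from lists. Of 19 interferon genes in the table, 17 had 0 counts in all 24 libraries, and the others, Ifnz with 24 counts and Ifnk with 9, were too low to be tested. A count of 0 allows a level of up to 0.14 CPM in the library with the fewest counts (3 counts, counting error only). Of 6 receptor genes, 3 fell with MCF10A/miR-122 EV and with MDA-MB-231 EV and 0 rose in either, where 9.53% and 6.34% of all genes tested were lower. With MCF10A EV edgeR called 0 of the 6, with 2 at an unadjusted p under 0.05, and DESeq2 called 1. Ifnar1, a chain of the type I receptor, had, with MCF10A/miR-122 EV first and then MDA-MB-231 EV, log2 fold changes of -0.36 (adjusted p = 0.000258) and -0.22 (adjusted p = 0.0196). Ifngr2, a chain of the interferon gamma receptor, had -0.63 (adjusted p = 0.000201) and -0.34 (adjusted p = 0.0331). Il28ra, the interferon lambda receptor chain, had -0.93 (adjusted p = 0.0473) and -1.46 (adjusted p = 0.00757), at a mean of 0.271 CPM. Of the kinases Jak1, Jak2 and Tyk2, which carry the signal from these receptors, edgeR and DESeq2 called 0 of 3 in each of the 3 comparisons with PBS, and 0 had an unadjusted edgeR p under 0.05.

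Among 12 tested sensors and adaptors, 3 fell and 2 rose with MCF10A/miR-122 EV, and 2 fell and 0 rose with MDA-MB-231 EV (16.7%, near the 11.7% of all genes tested). In the former the share was 41.7%, against 17.9%. With MCF10A EV edgeR called 0, with 3 at an unadjusted p under 0.05, and DESeq2 called 0. Tlr3, a receptor for double-stranded RNA, fell with MCF10A/miR-122 EV and with MDA-MB-231 EV (log2 fold changes -0.69 and -0.73, adjusted p = 0.00308 and 0.00322), as did Irf5 (-0.85 and -0.72, adjusted p = 0.00109 and 0.00627). Tlr7 and Tlr8, receptors for single-stranded RNA, rose with MCF10A/miR-122 EV (0.79 each, adjusted p = 0.0127 and 0.0375). In that group 5 of 8 Kupffer markers also rose, and their part in the Tlr7 and Tlr8 result was not tested. Of 4 other interferon regulatory factors, a separate list, 1 rose and 1 fell with MCF10A/miR-122 EV (50%, against 17.9% of all genes tested). With MDA-MB-231 EV 1 rose and 0 fell (25%, against 11.7%), and with MCF10A EV edgeR called 0. The factor that rose in both was Irf2, a repressor that competes with IRF1 for its sites (0.33 and 0.35, adjusted p = 0.0174 and 0.0201). Of 10 brakes of the pathway, 2 fell and 1 rose with MCF10A/miR-122 EV (30%), 2 fell with MDA-MB-231 EV (20%) and 1 fell with MCF10A EV (10%), against 17.9%, 11.7% and 1.07% of all genes tested. The one that fell with MCF10A EV was Pias4, a ligase that attaches SUMO (log2 fold change -0.32, adjusted p = 0.0496). Ptpn6, a phosphatase that dampens kinase signalling, fell with MCF10A/miR-122 EV and with MDA-MB-231 EV (-0.32 and -0.24, adjusted p = 0.00376 and 0.0279).

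Outside the 31, 43 other interferon-stimulated genes were tested. With MCF10A/miR-122 EV 12 fell and 3 rose (34.9%), and with MDA-MB-231 EV 8 fell and 2 rose (23.3%), beside 17.9% and 11.7% of all genes tested. With MCF10A EV edgeR called 0 of the 43, with 6 at an unadjusted p under 0.05, and DESeq2 called 2. Cxcl11, the third ligand of CXCR3, fell in both (log2 fold changes -1.34 and -0.92, adjusted p = 0.00147 and 0.0256), as Cxcl10 did in the first. Trim21, a cytosolic antibody receptor, fell in both (-0.70 and -0.64, adjusted p = 0.000125 and 0.000614). So did Dtx3l and Parp9, which act as a pair in DNA damage and interferon responses, with -0.53 and -0.44 with MCF10A/miR-122 EV and -0.33 and -0.36 with MDA-MB-231 EV. The proteasome activator genes split, with Psme1 rising (0.29, adjusted p = 0.0351) and Psme2 falling (-0.36, adjusted p = 0.0399) with MCF10A/miR-122 EV.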

How the data were processed

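The authors deposited 1 table of raw counts, unnormalized whole numbers for 23240 gene symbols in 24 liver libraries. Per the submitters' processing notes, the authors used bcl2fastq 2.18.0.12 and TopHat2 with build mm9. Libraries were made with a stranded kit, per the labels' protocols. Which program counted the reads, with which annotation and strand setting, is not given in the sources used here. The 27 entries sharing 11 symbols (0.0744% of counts) were left out.

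Counts were tested with edgeR 4.0.16 in R 4.3.3: TMM scaling, filterByExpr, 1 mean per group over 24 libraries, quasi-likelihood F tests (two-sided), Benjamini-Hochberg adjustment over 13773 genes, and a threshold of 0.05. The common biological coefficient of variation was 16.8%. CPM were computed by edgeR with the TMM factors, and the SD of log2 CPM was taken with 0.1 CPM added. DESeq2 1.42.0 and other settings were alternatives. The tests were checked on simulated counts.

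The genes, their classes, the lists and the tests were chosen with earlier results of these data known. Values per group are given for genes past the threshold in at least 1 of 5 comparisons or in the test among the 4 groups, and for the 3 genes with the highest mean CPM in each class. Other listed genes past the threshold may be named. One listed gene is not reported here. Motifs and shared sequence were counted in RefSeq GRCm38.p6 promoters and GENCODE M21 transcripts.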

Additional observations from a re-analysis of the deposited data

Results flagged for a closer look

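Among 124 sets of 6 libraries (31 genes in 4 groups), 9 held a library whose distance from its nearest neighbour exceeded 0.625 of the range of the group. Chance alone gives this in about 1 in 20 sets. MCF10A EV replicate 5 was apart from its group in 4 genes: Isg15 at 29.2 CPM (others 7.71 to 15.6), Oas1a at 17.9 CPM (others 6.9 to 10.9), Bst2 at 251 CPM (others 152 to 185) and Nlrc5 at 33.3 CPM (others 13.1 to 19.6). In the PBS group, replicate 5 had 13.6 CPM of Oas2 (others 5.92 to 8.78), and replicate 3 had 20.6 CPM of Cxcl9 (others 5.87 to 9.39). In the group labelled MCF10A/miR-122 EV, replicate 5 had 117 CPM of Stat2 (others 62.7 to 78.9), and replicate 2 was low in Mx1, at 1.62 CPM (others 2.09 to 2.37). MDA-MB-231 EV replicate 1 had 6.2 CPM of Cxcl10 (others 1.82 to 3.28).

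For 2 of the 31 genes the change against PBS differed between EV groups by the test of the difference itself. Both calls came from MCF10A/miR-122 EV against MCF10A EV, a comparison added after the values were seen. There, 16.2% of all genes tested differed. Cxcl9 differed by a log2 fold change of 1.129 between MCF10A/miR-122 EV and MCF10A EV (edgeR adjusted p = 0.00304). Dhx58 differed by -0.699 between the same groups (edgeR adjusted p = 0.031), a call lost without any 1 of 7 libraries. These groups lie in different sets of libraries.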

How the results depend on the processing

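Scaling by RLE, no filter on low counts, a filter of 1 CPM in 6 libraries and the replicate block left each count of the 31 genes called within 1.5 times its value. With DESeq2, MCF10A EV against PBS gave 3 of the 31 and 414 of all genes, and MDA-MB-231 EV against MCF10A/miR-122 EV gave 98 of all genes. With only the 12 libraries compared in the fit, the first gave 0 of the 31 and 27 of all genes, and the second 23 of all genes. With identities taken from the library names, MCF10A/miR-122 EV against PBS gave 3 of the 31 (1607 of all genes), MDA-MB-231 EV against PBS 7 (2463), MCF10A/miR-122 EV against MCF10A EV 0 (1058) and MDA-MB-231 EV against MCF10A EV 2 (2237), because the names exchange the 2 groups. Leaving out 1 library at a time gave, for the 31 and for all genes, 0 to 3 and 26 to 741 in MCF10A EV against PBS, 5 to 10 and 1821 to 2613 in MCF10A/miR-122 EV against PBS, 2 to 5 and 1132 to 1693 in MDA-MB-231 EV against PBS, 0 and 13 to 82 in MDA-MB-231 EV against MCF10A/miR-122 EV, 7 to 10 and 3032 to 3558 between the sets, 1 to 3 and 1653 to 2575 in MCF10A/miR-122 EV against MCF10A EV, and 5 to 9 and 2453 to 3286 in the test among the 4 groups. The count of 0 in MCF10A EV against PBS came without any 1 of PBS replicates 1, 2, 3 and 4 and MCF10A EV replicates 3, 4 and 6, and that of 3 without PBS replicate 5 or 6 or MCF10A EV replicate 5. The count of 5 in MDA-MB-231 EV against PBS came without PBS replicate 6. The cause was not tested.

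Replicate numbers did not pair the libraries: deviations of libraries with the same number correlated at -0.44 to 0.38 (median 0.03), and 4 of 24 libraries correlated best with their own number. With the replicate block, 1 of the 31 was called in MCF10A EV against PBS, 8 in MCF10A/miR-122 EV against PBS, 3 in MDA-MB-231 EV against PBS, 0 between the last 2 groups and 9 between the sets. It added Oas2, as higher, with MCF10A/miR-122 EV and between the sets, and took away Mx1 between the sets. Depth limits the genes with few counts, such as Cd274 (25 to 107 per library).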
